A study of Mus musculus with 9 samples.

Results

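Solute carriers are the membrane proteins that move small molecules across the plasma membrane and across the membranes of mitochondria, lysosomes and the Golgi apparatus, and their genes were examined here in invariant natural killer T cells of the NKT1 class. The members were chosen by their symbol, Slc followed by digits, and by a mean of at least 10 over the 9 libraries of the table. They numbered 193 of the 210 such genes listed, among 14004 gene identifiers in all. Because the mean value chose the members, their presence in these cells is not a finding. Just below the threshold stood Slc7a7 with a mean of 8.41 and Slc5a10 with 8.75, and just above it Slc25a33 with 10.03 and Slc15a3 with 10.81. Of the members, 191 were protein-coding genes, 1 was an antisense gene and 1 a pseudogene.

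The libraries came from iNKT1 cells of thymus, liver and spleen, with 3 libraries for each tissue. All mice were untreated, of strain C57BL/6 and of genotype Tbx21CreTg;Rosa26-LSL-YFP+/+, so every group carried the same Cre transgene, which the Tbx21 promoter drives, and the same Cre-dependent YFP reporter. There was no wild-type group without the transgene, and the age of the mice was not given in the sources used here. The replicates are described as independent, and p-values measure the spread between these libraries. The table holds read counts as normalised by the authors. Its column for thymus replicate 2 has a name that begins with WTf, where those of the other 8 libraries begin with WT. The column names do not explain this difference. Reads recovered from these values numbered 18506598 to 27706136 in thymus, 3877957 to 31579294 in liver and 32483307 to 39568081 in spleen. Liver replicate 3 was the shallowest, and 1 read there was worth 6.04 units against 0.60 to 1.25 units in the other 8 libraries. The summed level of 8 T cell and iNKT1 marker genes was 97393 to 116615 in thymus, 126160 to 144126 in liver and 87738 to 104353 in spleen. The markers did not share one order. The means of Cd3e, Cd3d, Cd247 and Il2rb were higher in liver than in thymus, and those of Cd3g, Zbtb16, Tbx21 and Klrb1c were lower. The mean of Il2rb was 66906 in liver and 38614 in thymus, and that of Klrb1c 5095 and 9483. In bulk samples such as these, fewer cells of a type and less RNA per cell cannot be told apart.

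Invariant NKT cells recognise lipid antigens through a nearly fixed T cell receptor, arise in the thymus, and settle in tissues, with the liver an especially rich site in mice. The NKT1 class depends on T-bet, the product of Tbx21. T cells take up glucose through the Slc2 family, glutamine and neutral amino acids through the Slc1, Slc7 and Slc38 families, and exchange lactate and related acids through the Slc16 family. The Slc12 family carries chloride together with potassium or sodium and sets cell volume, the Slc9 family exchanges sodium for protons, and the Slc30, Slc39 and Slc40 families move zinc, iron and manganese. Most carriers of the Slc25 family sit in the inner mitochondrial membrane, and many of the Slc35 family bring nucleotide sugars into the Golgi apparatus for glycosylation.

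By substrate, the members comprised 41 mitochondrial carriers, 29 carriers of ions, 28 of organic ions, vitamins and lipids, 22 of amino acids, 21 of metals, 20 of nucleotide sugars, 15 of sugars, 8 of carboxylates and 4 of nucleosides. A further 5 genes carry the name of a transporter without being one, among them Slc9a3r1, a scaffold protein that binds sodium/proton exchangers. A mean of at least 10 was reached in all 3 tissues by 164 members, in 2 tissues by 16 and in a single tissue by 13. Of the 193, 190 passed the filter for testing (3 or more libraries with a value of 1 or above), and Slc25a2, Slc25a47 and Slc36a3os did not.

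Of the members named by rule for a separation from thymus in both other tissues, 5 had a promoter in the sequence table. Those of Slc38a7 and Slc9a9 are left out, and the 3 of Slc16a10, Slc12a4 and Slc39a8 are shown. Each is the 250 bases before the RefSeq start on build GRCm38.p6, written 5′ to 3′, with matches to 3 short motifs in capitals: GGGCGG (the GC box), CACGTG (the E-box) and GGTGTG (a T-box core), each searched on both strands. The Slc16a10 window lies at chr10:40142255-40142504 on the minus strand, the Slc12a4 window at chr8:105966116-105966365 on the minus strand, and the Slc39a8 window, before the first of 2 starts, at chr3:135825029-135825278 on the plus strand.
Slc16a10: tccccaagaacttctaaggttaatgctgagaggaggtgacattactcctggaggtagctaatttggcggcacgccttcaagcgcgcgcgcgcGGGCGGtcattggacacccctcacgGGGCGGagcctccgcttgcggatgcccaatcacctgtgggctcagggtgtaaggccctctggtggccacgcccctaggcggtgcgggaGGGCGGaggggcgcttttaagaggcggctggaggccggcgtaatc
Slc12a4: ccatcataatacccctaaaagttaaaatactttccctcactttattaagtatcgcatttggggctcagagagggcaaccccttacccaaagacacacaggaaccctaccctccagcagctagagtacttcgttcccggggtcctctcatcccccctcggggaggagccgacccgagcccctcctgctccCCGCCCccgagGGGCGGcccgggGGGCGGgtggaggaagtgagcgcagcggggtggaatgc
Slc39a8: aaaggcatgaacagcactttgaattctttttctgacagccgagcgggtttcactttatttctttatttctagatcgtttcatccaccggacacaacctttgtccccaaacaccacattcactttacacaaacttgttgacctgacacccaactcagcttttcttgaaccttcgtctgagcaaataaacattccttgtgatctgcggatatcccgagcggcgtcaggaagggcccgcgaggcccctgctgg
The Slc16a10 and Slc12a4 windows held 3 GC boxes each and neither other motif. The Slc39a8 window shown held none of the 3, while the window before its second start held 1 GC box and 1 E-box. Among the genes not shown, the Slc38a7 window held 1 E-box and 1 T-box core, and the Slc9a9 window none of the 3 motifs. No match overlapped another. Among 27025 promoters of the same length, 32.9% held a GC box, 6.05% an E-box and 16.2% a T-box core. Among the 142 member promoters in the table, 85 held a GC box, 16 an E-box and 25 a T-box core. A match is a description of the letters and not evidence of binding.

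The question the design poses is how the transporter genes of these cells differ between the 3 tissues. No member passed the adjusted threshold of 0.05 in any comparison by limma-trend with Benjamini-Hochberg adjustment over 13309 genes. Over all genes tested, 43 (0.323%) passed between liver and thymus, 53 (0.398%) between spleen and thymus, 2 (0.015%) between liver and spleen and 46 (0.346%) in the test for any tissue, so a count of 0 among 190 members stands beside a low background by this test. At an unadjusted p under 0.05, 14 members passed between liver and thymus, 22 between spleen and thymus, 8 between liver and spleen and 14 in the test for any tissue. By edgeR's quasi-likelihood test on recovered reads, 0 members passed in each comparison. By DESeq2 on the same reads, 2 passed in each comparison with thymus (Slc12a4 and Slc16a10), 0 between liver and spleen and 1 in the test for any tissue (Slc16a10). Of the genes to which DESeq2 gave an adjusted p, 3.85% passed between liver and thymus, 4.25% between spleen and thymus, 0.176% between liver and spleen and 3.38% for any tissue, against 1.1%, 1.09%, 0% and 0.595% of the members.

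The directions of the unadjusted counts can be read against all genes. Between liver and thymus, 13 members were higher and 1 lower in liver, or 6.84% and 0.526%, where 7.72% and 3.92% of all genes were. Between spleen and thymus, 17 were higher and 5 lower in spleen, or 8.95% and 2.63%, against 7.56% and 4.13% of all genes. Between liver and spleen, 4 were higher and 4 lower in liver, or 2.11% each, against 1.72% and 1.31%. In the test for any tissue the share was 7.37% of members and 9.95% of all genes. These shares lay near those of all genes tested, apart from the smaller share of members that were lower in liver than in thymus, a difference that was not tested.

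A second count, of members whose 3 values in one tissue lay wholly above or below the 3 in the other, gave a similar picture. In liver, 12 members lay above thymus and 9 below, or 6.32% and 4.74%, against 9.61% and 5.73% of all genes. In spleen, 17 lay above thymus and 7 below, or 8.95% and 3.68%, against 9.29% and 6.03%. Between liver and spleen, 9 members lay higher in liver and 13 lower, or 4.74% and 6.84%, against 5.97% and 6.77%. The median log2 fold change of the 190 members was 0.38 between liver and thymus, 0.26 between spleen and thymus and 0.03 between liver and spleen, where the medians over all genes were 0.29, 0.33 and -0.02. Both comparisons with thymus share the same 3 thymus libraries. Scaling moved the median of all genes by over 0.1: with TMM factors it was 0.04 in each comparison with thymus, and log2 fold changes of members against thymus are best read relative to these medians.

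Among the carboxylate carriers, Slc16a10 had the lowest p of any member in the comparison of liver with thymus. It encodes a transporter of aromatic amino acids in the monocarboxylate family, and the gene lies at chr10:40033532-40142258 in GENCODE M21. Its values were 6958, 3120 and 4244 in thymus, 1556, 1058 and 873 in liver, and 1911, 1572 and 1298 in spleen. All 3 thymus libraries lay above all 6 others, while liver and spleen overlapped. The means were 4774 ± 1973 in thymus, 1163 ± 353 in liver and 1594 ± 307 in spleen (SD, n = 3 each), so the thymus mean was 4.11 times the liver mean and 3.00 times the spleen mean. Against thymus the log2 fold change in liver was -2.00 (SE 0.43, adjusted p = 0.0694) and in spleen -1.52 (SE 0.43, adjusted p = 0.184) by limma-trend. Over 21 alternative settings the adjusted p for liver against thymus lay between 0.000197 and 0.328 and passed the threshold in 4, namely with TMM factors, with array weights, with DESeq2 and without thymus replicate 2.

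The other carboxylate carriers gave no such separation. Slc16a6, a monocarboxylate family member of high level in these cells, had values of 3368, 3382 and 2907 in thymus, 4114, 2692 and 2393 in liver, and 1612, 2837 and 3010 in spleen. Slc16a1, the lactate and pyruvate transporter MCT1, had 824, 389 and 867 in thymus, 838, 346 and 642 in liver, and 535, 563 and 865 in spleen. In both genes the 3 tissues overlapped, with log2 fold changes against thymus of -0.11 and -0.42 for Slc16a6 and of -0.19 and -0.03 for Slc16a1. Slc16a3, the lactate exporter MCT4, ranged from 0.03 to 863 within thymus alone, from 0.88 to 252 in liver and from 44.3 to 477 in spleen.

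A gene that works with this family did pass the test. Emb encodes embigin, a membrane glycoprotein that serves as a chaperone of monocarboxylate transporters. It was the 1 gene of 30 tested on a list of accessory and regulatory genes to pass. That list was chosen with earlier results of these data known. Of all genes tested, 0.323% passed between liver and thymus and 0.398% between spleen and thymus. A link between Emb and the Slc16 members was not tested. Its values were 0.02, 10.4 and 57.7 in thymus, 308, 1272 and 1358 in liver, and 1293, 2260 and 3951 in spleen. Every thymus library lay below every liver and spleen library. Emb rose by 6.52 on the log2 scale in liver against thymus (SE 1.3, adjusted p = 0.0470) and by 8.0 in spleen (SE 1.3, adjusted p = 0.0131) by limma-trend. The call depended on the setting: it held in 7 of 21 alternatives for liver, with adjusted p from 1.11e-05 to 0.450, and in 16 of 21 for spleen, with adjusted p from 4.43e-09 to 0.183. With 1 library left out at a time, the liver call held only without thymus replicate 1 (adjusted p = 0.0261) or thymus replicate 3 (0.0104), and the spleen call was lost without any 1 of the spleen replicates (0.0695, 0.0865 and 0.114). Bsg, which encodes basigin, the other chaperone of these transporters, had 1471, 1966 and 2518 in thymus, 2414, 1792 and 1345 in liver, and 1488, 1353 and 1228 in spleen, and its 3 tissues overlapped.

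**Figure D1:**
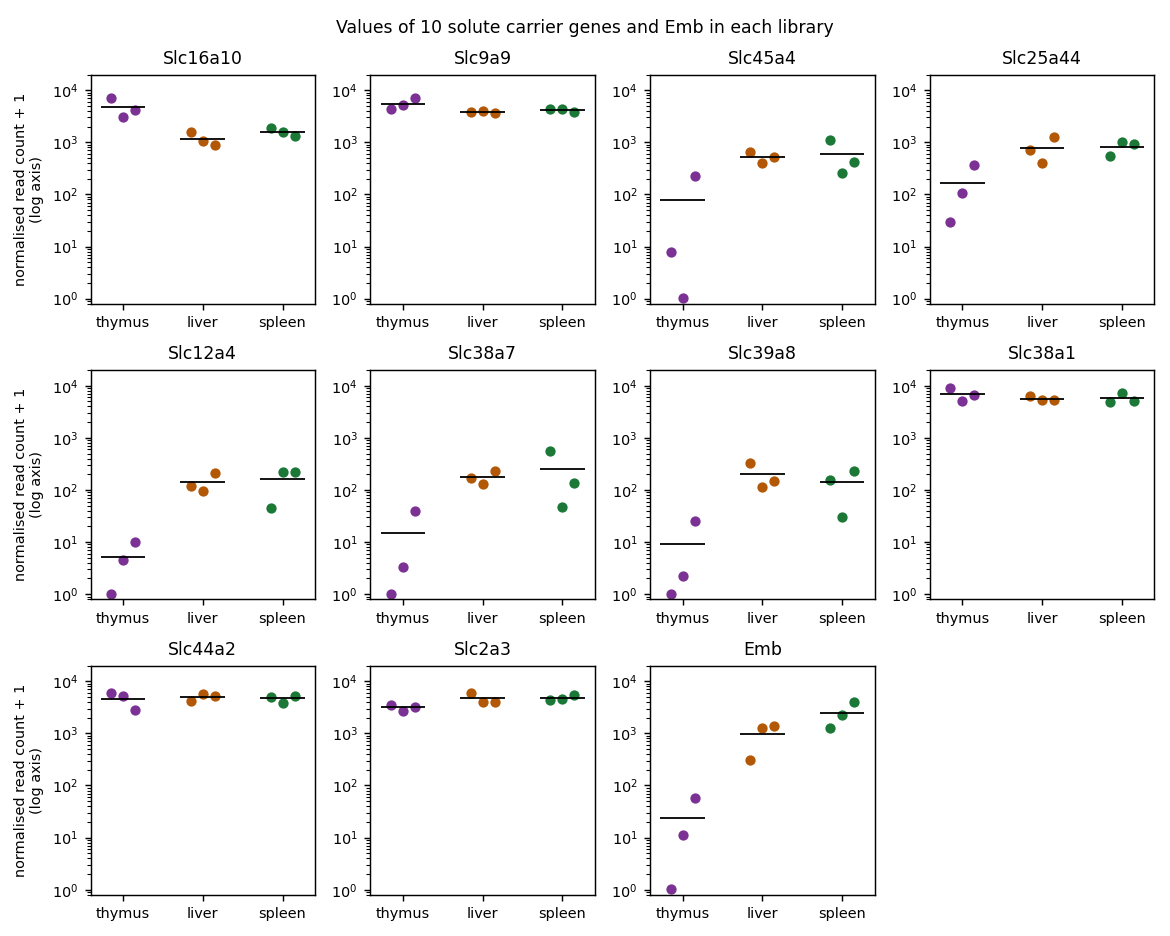
Normalised read counts plus 1 on a log axis for 10 solute carrier genes and Emb, with 1 point per library, tissues along the horizontal axis and a bar at the mean of 3 libraries. Slc16a10 lies highest in thymus (3120 to 6958), Emb lowest in thymus (0.02 to 57.7), and Slc38a1 and Slc44a2 lie level across the 3 tissues.

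Several members were low in thymus and present in both other tissues, with the thymus libraries far apart from each other. Slc45a4, of a family of proton-linked sugar carriers, had 6.75, 0.03 and 222 in thymus, 649, 401 and 526 in liver, and 1098, 261 and 411 in spleen. Slc12a4, the potassium-chloride cotransporter KCC1, had 0.02, 3.50 and 8.83 in thymus, 116, 92.7 and 206 in liver, and 44.7, 221 and 219 in spleen. Slc39a8, a zinc and manganese importer, had 0.02, 1.19 and 23.9 in thymus, 334, 115 and 145 in liver, and 154, 28.8 and 233 in spleen. In all 3 genes the thymus values lay below every value of the other tissues, and thymus replicate 3 was the highest of the thymus libraries. Slc38a7, a glutamine carrier of lysosomes, had 0.02, 2.34 and 38.9 in thymus, 165, 128 and 229 in liver, and 569, 45.3 and 137 in spleen. Slc25a44, the mitochondrial carrier of branched-chain amino acids, had 28.1, 104 and 369 in thymus, 714, 397 and 1253 in liver, and 555, 1014 and 914 in spleen. These genes followed the same order, with no overlap between thymus and either other tissue. Slc12a4 and Slc39a8 reached a mean of 10 in liver and spleen only, and so became members through these tissues. Their contrasts with thymus, including the DESeq2 calls for Slc12a4, follow in part from how members were chosen and are descriptions.

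The log2 fold changes between liver and thymus were 5.41 (SE 1.63) for Slc45a4, 5.55 (SE 1.77) for Slc39a8, 5.21 (SE 1.67) for Slc12a4, 2.77 (SE 0.95) for Slc25a44 and 5.05 (SE 1.77) for Slc38a7. Their adjusted p values, from 0.214 to 0.294, missed the threshold (limma-trend). Between spleen and thymus the 5 log2 fold changes were 5.34, 4.75, 5.20, 2.95 and 4.90, with adjusted p from 0.211 to 0.309. Over the 21 alternatives, Slc12a4 passed in 1 (DESeq2) and Slc45a4 in 1 (without thymus replicate 3) in each comparison with thymus, and the other 3 in none. Leaving out thymus replicate 3 also brought Slc25a30 past the threshold against liver. The values of Slc25a30 were 0.02, 0.03 and 184 in thymus, 520, 248 and 152 in liver, and 117, 98.3 and 200 in spleen, so thymus replicate 3 reached the range of the other tissues.

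The libraries also differed in how many members had no read. Members without a recovered read numbered 35, 30 and 17 in thymus replicates 1 to 3, 19, 5 and 14 in liver, and 14, 8 and 8 in spleen. All 9 libraries held a read of 136 members, or 70.5%, against 66.7% of all genes tested. At most 3 reads in thymus replicates 1 and 2, with more than 3 in the other 7 libraries, were found for 7 members: Slc12a4, Slc25a30, Slc27a4, Slc35f6, Slc38a7, Slc39a7 and Slc39a8. That was 3.63% of members, against 1.88% of all genes tested, a difference that was not tested. The part that the depth and composition of these 2 thymus libraries have in the result was not tested. Summed, 4 immature thymocyte markers stood at 0.11 to 783 in thymus, 88.1 to 1157 in liver and 0 to 26.3 in spleen. In thymus replicate 3, Rag1 stood at 486 and Cd8a at 257, against at most 0.03 in thymus replicates 1 and 2. Cd8b1 had 16.8, 0.03 and 28.9 in thymus, and Cd8a reached 1116 in liver replicate 1. The part of other cells in thymus replicate 3 was not tested either. The median SD of log2 values within thymus was 1.54 for members and 1.34 for all genes, against 0.80 and 0.76 in liver and 0.76 and 0.77 in spleen.

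**Figure D2:**
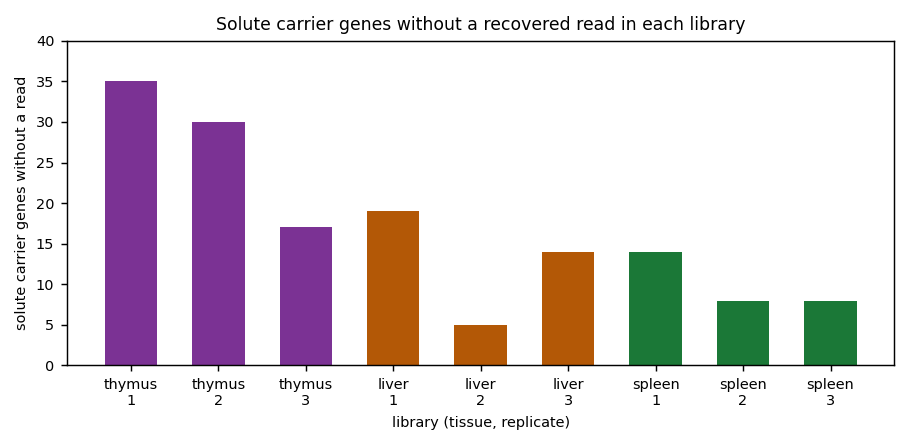
Number of the 193 solute carrier genes without a recovered read in each library, with bars coloured by tissue. The tallest bars are those of thymus replicates 1 and 2, with 35 and 30 genes, and the shortest is that of liver replicate 2, with 5.

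Slc2a3, the high-affinity glucose transporter GLUT3, had the highest mean over the 9 libraries among the sugar carriers. Per kilobase of exon, Slc2a1, the widely expressed transporter GLUT1, stood above it in thymus (621 against 439) and below it in liver (323 against 648) and spleen (290 against 667). Slc2a3 had 3548, 2735 and 3254 in thymus, 5964, 4078 and 4033 in liver, and 4336, 4596 and 5568 in spleen. All 6 liver and spleen values lay above the 3 thymus values, and the log2 fold changes were 0.54 (95% interval -0.11 to 1.20) and 0.60 (-0.05 to 1.26), with adjusted p of 0.504 and 0.461 (limma-trend). Slc2a1 had 3815, 715 and 2006 in thymus, 1094, 1329 and 976 in liver, and 904, 909 and 1239 in spleen. Its thymus values spanned those of the other tissues. Slc37a3, of the sugar-phosphate exchanger family, had 2724, 2359 and 1845 in thymus and 1829, 1008 and 1442 in liver, with no overlap and a log2 fold change of -0.72 (adjusted p = 0.529).

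Some rarer sugar carriers had reads in part of the tissues. Slc5a2, the sodium-glucose cotransporter SGLT2, had 64.3, 30.3 and 39 in spleen and no recovered read in the 6 libraries of thymus and liver. It reached the mean of 10 through spleen alone, so its contrast follows from how members were chosen and is a description. Slc2a6, the lysosomal transporter GLUT6, had 70.6, 19.7 and 40.8 in liver, a single thymus library with reads (18.8) and no read in spleen. It became a member through liver alone, and the same limit applies.

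Among the amino acid carriers, Slc38a1, the sodium-coupled glutamine transporter SNAT1, had values of 8890, 5037 and 6600 in thymus, 6485, 5248 and 5221 in liver, and 4797, 7223 and 5120 in spleen. The tissues overlapped throughout, and the 95% intervals of the log2 fold change were -0.87 to 0.39 for liver against thymus, -0.88 to 0.38 for spleen against thymus and -0.63 to 0.63 for liver against spleen. Slc44a2, a choline transporter-like protein, was the only other member whose 3 intervals lay within 1 log2 unit of 0, with -0.53 to 0.89, -0.63 to 0.79 and -0.61 to 0.81. That made 2 of 190 members, or 1.05%, against 3.12% of all genes tested. Within 1.5 log2 units lay 18 members, or 9.47%, against 12.2% of all genes, and these included Slc2a3, Slc38a2, Slc6a6, Slc28a2, Slc20a1, Slc11a2, Slc25a3 and Slc25a11.

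Slc1a5, the neutral amino acid and glutamine exchanger ASCT2, had 8636, 3212 and 1903 in thymus, 3708, 2887 and 2750 in liver, and 2367, 1795 and 1318 in spleen. The liver values were all above the spleen values (log2 fold change 0.80, SE 0.48), and thymus overlapped both. Slc7a5, the large neutral amino acid transporter LAT1, had 464, 2.34 and 308 in thymus, 787, 232 and 466 in liver, and 512, 316 and 510 in spleen. Its partner chain Slc3a2, known as CD98, had 723, 942 and 3825 in thymus, 2177, 1863 and 1599 in liver, and 1123, 859 and 1831 in spleen. Thymus overlapped both other tissues in each of these genes, and for Slc7a5 thymus replicate 2 alone was near zero. Slc38a9, the lysosomal arginine sensor of the mTOR pathway, had 851 to 1038 in thymus, 352 to 702 in liver and 597 to 904 in spleen, and liver lay below thymus without overlap (log2 fold change -0.84, SE 0.59).

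Of the 29 carriers of ions, 4 lay lower in liver than in thymus without overlap, where 5.73% of all genes did, and the class was not tested. Slc9a9, an endosomal sodium/proton exchanger, had 4456, 5212 and 6979 in thymus, 3841, 4073 and 3695 in liver, and 4351, 4419 and 3801 in spleen. All liver and spleen values of Slc9a9 lay below its thymus values, spleen only just. Slc41a2, a magnesium transporter, had 248, 276 and 511 in thymus and 95.7, 19.7 and 19.2 in liver, and Slc26a2, a sulfate transporter, had 3759, 2349 and 1983 in thymus and 1955, 1789 and 1085 in liver. The log2 fold changes were -0.50 for Slc9a9, -3.26 for Slc41a2 and -0.73 for Slc26a2, with adjusted p from 0.524 to 0.540 (limma-trend).

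The potassium-chloride cotransporters Slc12a4 and Slc12a7 did not share one order of values. Slc12a4 lay lowest in thymus, while Slc12a7, known as KCC4, had 973, 2251 and 1359 in thymus, 971, 858 and 1212 in liver, and 695, 621 and 667 in spleen. Spleen lay below both other tissues for Slc12a7, with a log2 fold change of -1.12 (SE 0.52, adjusted p = 0.421) against thymus. Whether these genes differ from each other in their tissue pattern was not tested. Slc4a7, a sodium-bicarbonate cotransporter, had 1170, 1363 and 1597 in thymus, 1918, 1970 and 1454 in liver, and 3225, 2277 and 2266 in spleen, and all 3 spleen values lay above the other 6.

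Slc11a2, the iron transporter DMT1, had 2149, 2342 and 2612 in thymus, 3218, 1982 and 1243 in liver, and 2469, 3692 and 3115 in spleen, with overlap between liver and each other tissue. Slc39a6, a zinc importer, had 2179, 7466 and 804 in thymus against 1637 to 2477 in liver and 1500 to 2208 in spleen. Slc30a4, a zinc exporter of vesicles, had 58.1, 15.1 and 73.1 in spleen, at most 1.19 in thymus and at most 7.16 in liver. It became a member through its spleen values, so this contrast too is a description. Slc40a1, the iron exporter ferroportin, had 727 in spleen replicate 1 and 124 in liver replicate 2, and at most 1.3 in the other 7 libraries. In spleen replicate 1 the myeloid marker Csf1r stood at 1297, against 0 and 1.12 in the other spleen libraries. The liver libraries did not show the same order. There the myeloid marker Cd68 stood at 1171, 12.8 and 85.9 in replicates 1 to 3, where Slc40a1 had 0, 124 and 0.84. The myeloid marker Lyz2 stood at 13.4 in spleen replicate 1 and at 404 in liver replicate 3. The summed level of 4 myeloid markers was 24.8 to 1189 in liver and 32.3 to 2903 in spleen. The part of other cells in the Slc40a1 value was not tested.

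Mitochondrial carriers made up the largest share of the members' summed level per kilobase of exon, with 23.6% in thymus, 29.4% in liver and 25.1% in spleen. Slc25a5, the adenine nucleotide translocase ANT2 on chromosome X, had the highest level per kilobase of all members in each tissue, with means of 2385, 3478 and 1918. Its values were 4389, 2261 and 5128 in thymus, 6487, 4855 and 5832 in liver, and 3288, 3542 and 2643 in spleen. Here too liver exceeded spleen in every library, with a log2 fold change of 0.86 (SE 0.35, unadjusted p = 0.0266, adjusted p = 0.9999, limma-trend), and thymus overlapped both. Slc25a3, the phosphate carrier, had 8596, 9288 and 5193 in thymus, 7411, 4319 and 5984 in liver, and 4439, 4810 and 5648 in spleen. Its tissues overlapped.

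Other mitochondrial carriers differed more in value. Slc25a10, the dicarboxylate carrier, had 476, 53.2 and 182 in liver and 0, 11.6 and 13.7 in spleen, while thymus held 0.02, 1.19 and 170. Slc25a39, a carrier required for mitochondrial glutathione, had 0.02, 62.5 and 203 in thymus, 259, 512 and 321 in liver, and 488, 273 and 449 in spleen, and its thymus values lay below all others. Slc25a51, the NAD carrier, lay higher in spleen (2252, 1183 and 1432) than in liver (558, 1001 and 1006), as did Slc25a17, a peroxisomal carrier, with 639, 535 and 543 against 332, 306 and 249. The log2 fold changes between liver and spleen were -0.92 (SE 0.59) and -0.96 (SE 0.69). The class of mitochondrial carriers held 39 tested members of the Slc25 family, Slc25a17 included. Their median log2 fold change was 0.63 between liver and thymus and 0.61 between spleen and thymus, with 31 and 29 above 0. Over the 13309 genes tested these medians were 0.29 and 0.33, with 7975 and 8151 genes above 0, and the class was not tested.

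**Figure D3:**
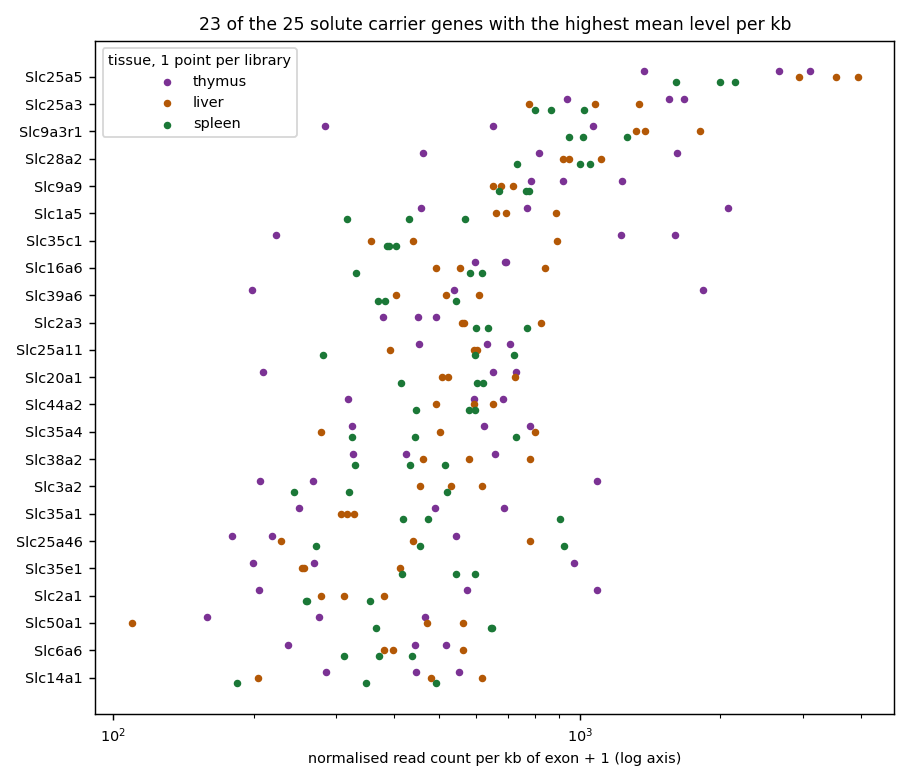
Normalised read count per kilobase of exon plus 1, on a log axis, for 23 of the 25 solute carrier genes with the highest mean, with 1 point per library coloured by tissue. Slc25a5 lies highest, with tissue means of 1918 to 3478 per kilobase, and the thymus points are the most scattered for many genes.

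Of the 20 members of the Slc35 family, classed here as nucleotide sugar carriers, 3 lay lower in liver than in spleen without overlap and 1 higher. Of all genes 6.77% and 5.97% did, and the class was not tested. Slc35a1, the CMP-sialic acid transporter, had 705, 726 and 751 in liver against 955, 2071 and 1084 in spleen. Slc35c2 had the opposite order, with 1230, 836 and 654 in liver against 597, 306 and 264 in spleen. For both genes the thymus values overlapped both other tissues, with 570 to 1575 for Slc35a1 and 260 to 1107 for Slc35c2. Slc35c1, the GDP-fucose transporter, had 5238, 4001 and 728 in thymus, 2917, 1165 and 1436 in liver, and 1276, 1318 and 1260 in spleen.

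Nucleoside carriers were led by Slc28a2, the sodium-coupled purine nucleoside transporter CNT2. It had 3436, 6780 and 1939 in thymus, 4654, 3865 and 3979 in liver, and 3076, 4424 and 4197 in spleen, and its 3 tissues overlapped. Slc29a1, the equilibrative transporter ENT1, had 341, 606 and 45.2 in thymus, 152, 218 and 254 in liver, and 365, 59.8 and 61.7 in spleen. Slc43a3, a purine nucleobase carrier, had 5385 in thymus replicate 1 against 87.9 and 21.4 in the other thymus libraries, and 131 to 679 in liver and spleen. The high value thus came from a single library.

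In the class of organic ions, vitamins and lipids, Slc18a2, the vesicular monoamine transporter VMAT2, had 536, 601 and 338 in thymus, 632, 483 and 231 in liver, and 338, 256 and 169 in spleen. Slc27a4, a fatty acid transport protein, had 0.02, 1.19 and 66.5 in thymus, 33, 234 and 140 in liver, and 165, 234 and 37.7 in spleen. Thymus overlapped liver and spleen for Slc27a4 through thymus replicate 3 alone. Slc10a1, the bile acid transporter of hepatocytes, had 25.2, 106 and 144 in liver, 47.1, 0.03 and 3.81 in thymus, and 0.70, 18.5 and 1.72 in spleen. The summed level of 5 hepatocyte markers was 1350 to 1709 in liver, against 0.10 to 270 in thymus and 0 to 14.1 in spleen. Of these markers, Alb alone stood at 1172 to 1588 in liver, while Apoa1 and Ttr were at 0 in liver replicate 1. The part of hepatocyte RNA in the liver values of members was not tested. Slc9a3r1, the scaffold protein, had 1250, 545 and 2049 in thymus, 3478, 2542 and 2653 in liver, and 1951, 2425 and 1824 in spleen, and liver lay above all other libraries (log2 fold change 1.36, SE 0.48, adjusted p = 0.294 against thymus).

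**Figure D4:**
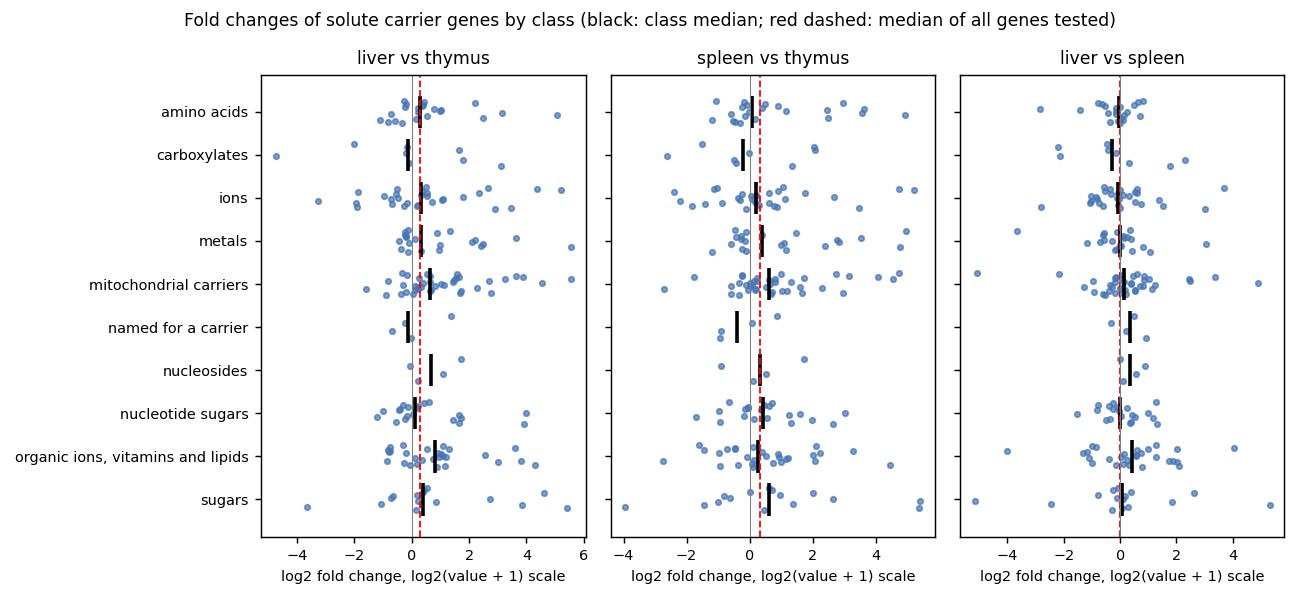
Log2 fold change of each tested solute carrier gene on the log2(value + 1) scale by substrate class in the 3 comparisons, with a black bar at each class median and a red dashed line at the median of all genes tested. The median of all members is 0.38, 0.26 and 0.03 in turn, and single genes reach beyond 5 log2 units in each comparison.

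By class, the median log2 fold change between liver and thymus ran from -0.14 for carboxylates to 0.82 for organic ions, vitamins and lipids. Between spleen and thymus it ran from -0.41 for the genes only named for a carrier to 0.61 for mitochondrial carriers, and between liver and spleen from -0.29 for carboxylates to 0.43 for organic ions, vitamins and lipids. Against the all-gene medians of 0.29, 0.33 and -0.02, these are descriptions of small classes. Of 29 carriers of ions, 2 lay higher and 4 lower in liver than in thymus without overlap, and of 15 sugar carriers 3 and 2. The counts were 2 and 1 of 39 mitochondrial, 1 and 1 of 22 amino acid, and 0 and 1 of 8 carboxylate carriers. They were 1 and 0 of 21 metal carriers, 20 nucleotide sugar carriers, 28 carriers of organic ions, vitamins and lipids, and 4 genes only named for a carrier. For 4 nucleoside carriers they were 0 and 0. Over all genes tested, 9.61% lay higher and 5.73% lower, and no class was tested.

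**Figure D5:**
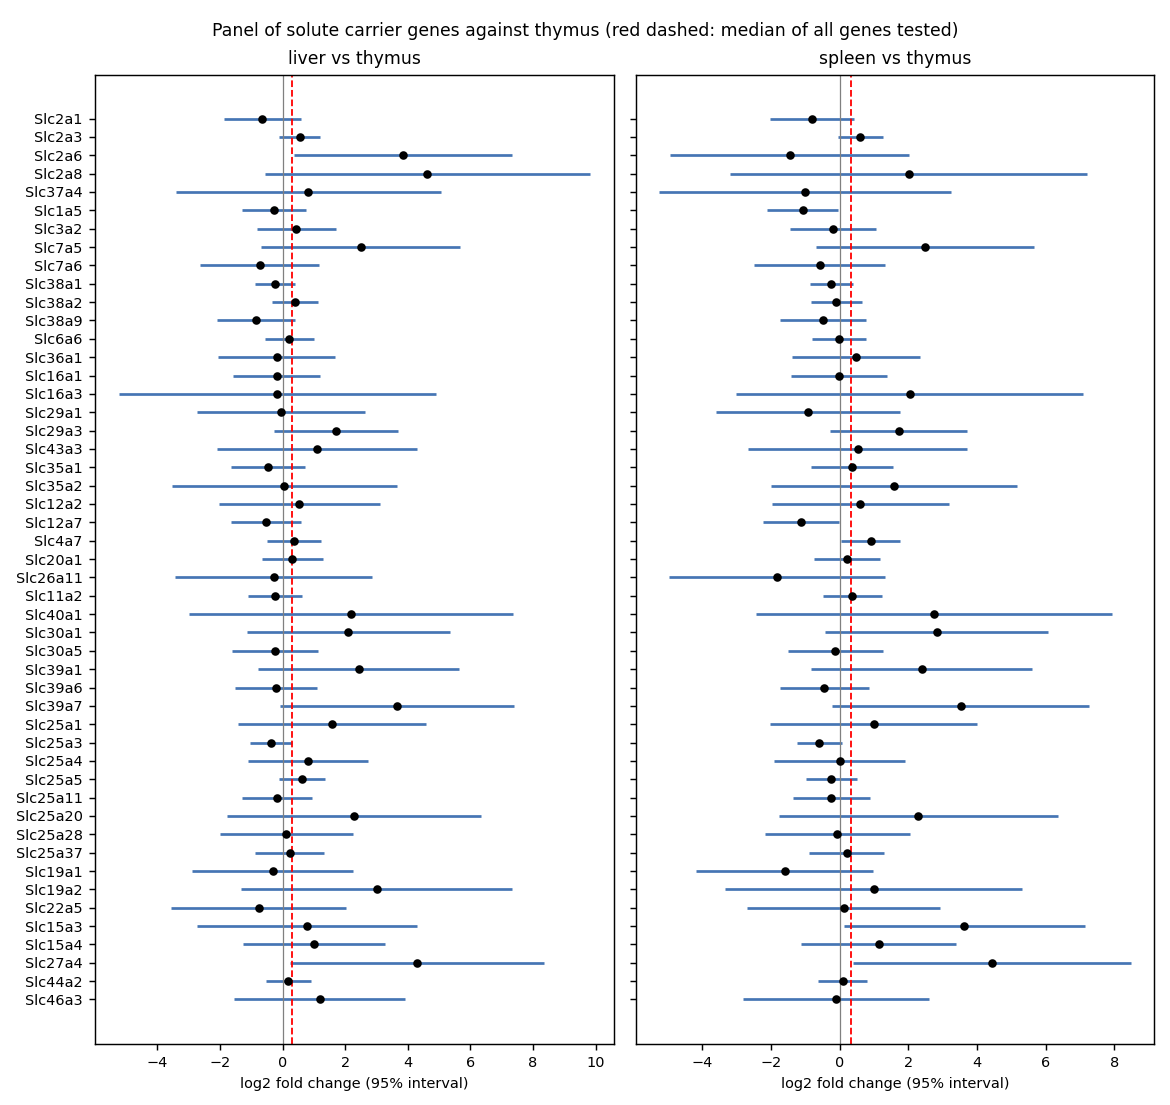
Log2 fold change (points) and 95% interval (lines) of 49 solute carrier genes of a panel of known transporters, for liver and spleen against thymus, with a red dashed line at the median of all genes tested. Most intervals cross 0, the narrowest belong to abundant genes such as Slc38a1, and the widest, such as that of Slc2a8, span more than 10 log2 units.

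Related transporters under other symbols gave no call either. Of 32 genes on that list, 29 were in the table and 0 passed the adjusted threshold in any pairwise comparison (limma-trend). The highest was Ucp2, an uncoupling protein of the mitochondrial carrier family, with 23584, 13795 and 16077 in thymus, 22820, 23854 and 19036 in liver, and 21520, 18344 and 18147 in spleen. Xpr1, the phosphate exporter, ranged from 2788 to 6262 over the 9 libraries. Npc1, the lysosomal cholesterol transporter, had 5690, 2834 and 4314 in thymus, 1422, 2832 and 2223 in liver, and 1432, 1187 and 2525 in spleen. All 6 liver and spleen values lay below the 3 thymus values, with liver replicate 2 next to the lowest of them, and the adjusted p was 0.402 and 0.246 (limma-trend). Among the accessory and regulatory genes, Wnk1, a kinase that controls the Slc12 cotransporters, had 19733 to 36489 over the 9 libraries, and Txnip, which lowers glucose uptake, had 3967 to 6316.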

How the data were processed

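RNA of the 9 libraries was sequenced on a NextSeq500 per the labels' protocols. The authors' tools were Trimmomatic 0.33, TopHat2 2.1.0, HTSeq 0.6.1 and edgeR with build mm10, per the submitters' processing notes. The deposited values are normalised read counts, a signal that the authors scaled between libraries. Low values fell on steps from which whole reads were recovered: 98.2% to 100% of values of 1 to 20 reads lay within 0.1 read of a whole number, except 72.7% in liver replicate 3.

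Genes were named through a table of identifiers (13359 of 14004 matched), and exon lengths and positions came from GENCODE M21. Genes with a carrier's name that are not carriers were put in a class of their own after the data were seen, and 5 of them are members. Log2(value + 1) was fitted with limma 3.58.1 (limma-trend, R 4.3.3) over 13309 genes (3 or more libraries with a value of 1 or above), with all 9 libraries and a tissue term, two-sided, with Benjamini-Hochberg adjustment over all genes. Fold changes on this scale understate those of low genes. The fit was tested on simulated counts with the same spread set for every gene and library. In these data the spread differed between tissues, so that test does not bear on the calls here. EdgeR 4.0.16 and DESeq2 1.42.0 on recovered reads, other scalings, pseudocounts, filters and left-out libraries were alternatives. Intervals cover 95% by the moderated test. Named genes were, per comparison, the 6 higher and 6 lower members of smallest p without overlap and with a mean of at least 100 in the higher tissue, a panel of known transporters, the 2 highest members of each class, and genes of related lists that passed or were highest. Of the panel, Slc7a11 and Slc11a1 were not analysed here. Other genes named in the text were chosen after their values were seen. The members and lists were chosen with earlier results of these data known. Some members counted here are not reported by name.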

Additional observations from a re-analysis of the deposited data

How the results depend on the processing

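Over 21 alternatives and a restriction to members with a mean of at least 100, the number of members past the adjusted threshold stayed at 0 between liver and spleen. Between liver and thymus it was 1 with TMM factors, 1 with array weights and 2 with DESeq2, and 0 to 3 with 1 library left out. Between spleen and thymus it was 2 with DESeq2 and 0 to 2 with 1 library left out. In the test for any tissue it was 1 with TMM factors, 1 with DESeq2 and 0 to 2 with 1 library left out. Without thymus replicate 3, 151 genes of all tested passed between liver and thymus, against 43 with all libraries, and without a liver replicate 8 or 9 passed. Between spleen and thymus 140 passed without thymus replicate 3, against 53, and 14, 11 and 9 without spleen replicates 1, 2 and 3. With the replicate block, 0 members passed in every comparison and 42, 55, 4 and 45 of all genes. Deviations from the tissue means correlated at -0.0007 to 0.089 for same-numbered libraries and at -0.087 to 0.048 for differently numbered ones. With 3 libraries per tissue these deviations sum to 0, so such correlations cannot decide whether replicate numbers pair the samples. Of the log2 fold changes examined under these settings for single genes, including Emb, none turned in direction. The settings were applied to Emb after its values were seen. The causes of the lost or gained calls were not tested. Depth limits members near 1 read, most of all in liver replicate 3.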
